A study of Bos taurus with 16 samples.

Results

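The nutrient transporters of the solute carrier (SLC) superfamily are described here in bovine endometrium and blastocysts measured on Affymetrix bovine genome arrays. A probe set, the group of probes that reads 1 transcript, was included when its only gene symbol belonged to one of 13 SLC families that carry amino acids, peptides, sugars, monocarboxylates, fatty acids or choline. This gave 76 probe sets for 53 genes, of 24016 probe sets on the array once controls were left out. 12 of the 13 families had a member, and the proton-coupled amino acid family SLC36 had 0. Membership followed the family number alone, so a few genes carry other solutes, such as the iodide transporter SLC5A5 and the monoamine transporters SLC6A2 and SLC6A4.

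The tissue came from superovulated cows, 49 in the series, whose endometrium was brushed with a cytobrush 2 h before insemination (day 0) and again just before the uterus was flushed (day 7). SE stands for subclinical endometritis, called when the brush held any polymorphonuclear cells, and HE for healthy endometrium, whose brushes held 0 of them. Endometrium was represented by 3 SE pools and 2 HE pools on day 7, and by 3 SE pools and 3 HE pools on day 0. Blastocysts flushed on day 7 were represented by 3 pools from SE donors and 2 from HE donors, with 10 blastocysts in a pool. All donors had been superovulated, so no group shows an unstimulated cycle. Pools were formed from the status at each time, so pools of the 2 days may hold cells of the same cows. Every array carried RNA of a pool, and the p-values therefore measure the spread between these pools and not between cows.

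SLC proteins move solutes across membranes without hydrolysing ATP. Some use the sodium or proton gradient, others exchange one solute for another, and others only let a solute run down its own gradient. In the ruminant uterus the epithelium and its glands release amino acids, glucose and other nutrients into the lumen, where the embryo lives free for many days before it attaches. Transporters of the uterine epithelium therefore set what enters that fluid, and transporters of the trophectoderm, the outer layer of the blastocyst, set what the embryo takes up.

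Levels are deposited signals on the log2 scale, so a difference of 1 is a doubling. A probe set was tested in a tissue when its signal was above 4 on at least 2 arrays of that tissue. In endometrium 35 member probe sets of 29 genes were tested, and in blastocysts 31 of 27 genes. 23 were tested in both tissues, 12 in endometrium alone, 8 in blastocysts alone and 33 in neither. The median signal of an array was 4.18 to 4.30 in endometrium and 3.08 to 3.12 in blastocysts. The filter of 4 is no detection call. Levels of different probe sets, or of a probe set in the 2 tissues, are not on a shared scale and are not compared.

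The label of the tissue was checked against markers. Of 13 epithelial markers on the array 12 were tested in endometrium, KRT8 being the exception. In blastocysts 5 of 6 trophectoderm markers and 3 of 4 inner cell mass and hypoblast markers were tested, while 0 of 8 neutrophil, 0 of 8 macrophage and dendritic, 0 of 5 ciliated cell and 0 of 5 erythrocyte markers were. Of markers of other cells, 12 of 13 epithelial, 6 of 12 stromal, 3 of 12 lymphocyte, 2 of 7 endothelial and 2 of 6 smooth muscle markers were also tested in blastocysts. The second SE day 0 pool was less like the rest of its day, with a mean Pearson correlation of 0.961 to the remaining day 0 pools, where the other pools had 0.975 to 0.979. Its GAPDH control probes read 0.58 higher at the 3' than at the 5' end, against 0.03 to 0.14 on the other day 0 arrays, and the same difference ran from 0.22 to 0.57 over the day 7 arrays.

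Most of the endometrial transporters tested differed between day 7 and day 0. The proline transporter SLC6A20, the creatine transporter SLC6A8, the cationic amino acid exchanger SLC7A7, the peptide transporter SLC15A1 and the fatty acid transporter SLC27A6 were higher on day 7 in both status groups, while the lactate transporter SLC16A1, a pair of fatty acid transporters and the arginine transporter SLC7A1 were lower. In SE endometrium 25 of the 35 member probe sets passed limma's test (adjusted p under 0.05), 14 higher and 11 lower on day 7. In HE endometrium 23 passed, 14 higher and 9 lower. Of the 35 members 11, named below, passed the filter through 1 day alone and so had their direction set by it. Most of them are in these counts. SLC7A5 and a probe set of SLC16A3 are in neither, and SLC5A1 is in the SE count alone. Among all 13421 probe sets tested, 50.1% passed in SE (26% higher, 24.1% lower) and 45% in HE (21.8% higher, 23.2% lower), beside 71.4% and 65.7% of the members. The median absolute difference of the members was 1.58 in SE and 1.49 in HE on the log2 scale, against 0.60 and 0.59 over all probe sets tested. With no filter on low signals 24 of all 76 members passed in SE (31.6%, against 25.8% of all 24016 probe sets) and 23 in HE (30.3%, against 23.4%).

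The comparisons of the days in SE and in HE used different arrays. In both, the same 14 probe sets of 10 genes rose (SLC1A1, SLC5A10, SLC6A8, SLC6A20, SLC7A7, SLC15A1, SLC16A13, SLC27A6, SLC38A7 and SLC44A2) and the same 9 of 8 genes fell (SLC5A5, SLC7A1, SLC16A1, SLC16A3, SLC27A2, SLC27A5, SLC38A2 and SLC44A4). That is 23 of 35 members, 0 of them in opposite directions. For some of the 23 the filter fixed the direction, so their shared sign is no support. These are SLC5A5, SLC6A20, SLC15A1, SLC16A1, SLC27A2, SLC27A5, SLC27A6 and the dimmest probe set of SLC16A13. Over all probe sets 5179, or 38.6%, passed in both with the same sign.

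**Figure D1:**
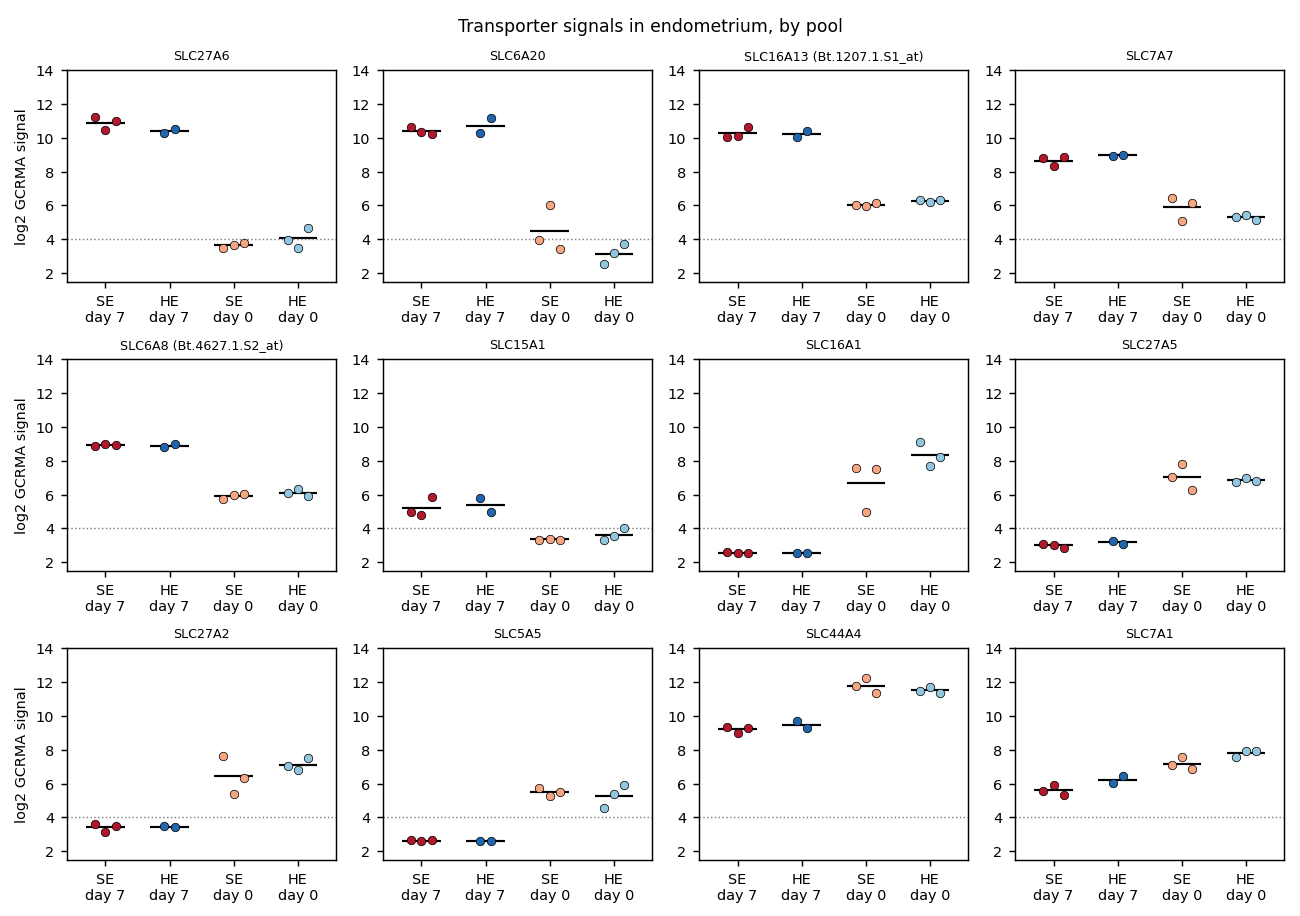
Log2 signal of 12 transporter probe sets in each endometrium pool (y axis), by group (x axis), with a bar at the group mean and a dotted line at the filter of 4. The panels were picked from members that rose or fell. In the 6 that rose, the day 7 pools all lie above the day 0 pools. SLC27A6 read 10.27 to 11.21 on day 7 against 3.50 to 4.69 on day 0. In the 6 that fell, all lie below. Over all probe sets tested, every day 7 pool was higher in 29.3% within SE and 32.2% within HE, and lower in 28.6% and 36.1%. The filter set the direction of SLC27A6, SLC6A20, SLC15A1, SLC16A1, SLC27A5, SLC27A2 and SLC5A5.

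Fatty acid transporters called between the days read both ways, SLC27A6 higher and SLC27A5 and SLC27A2 lower on day 7. Each of them passed the filter through 1 day alone, so its direction was set by the filter. SLC27 proteins take up long-chain fatty acids and join them to coenzyme A. SLC27A6 read 11.21, 10.47 and 11.00 in SE and 10.27 and 10.50 in HE on day 7, against 3.50, 3.63 and 3.77 in SE and 3.97, 3.52 and 4.69 in HE on day 0. Every day 7 pool was far above the filter, and 5 of the 6 day 0 pools were under it. The log2 difference was 7.26 (standard error 0.29, adjusted p = 8.98e-08) in SE and 6.32 (standard error 0.32, adjusted p = 6.15e-07) in HE. As each SE day 0 pool lay at or under 4, the SE change is better given as at least 119-fold, measured against that limit.

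SLC27A5, known from liver as a bile acid and fatty acid coenzyme A ligase, fell. It read 3.10, 3.02 and 2.85 in SE and 3.28 and 3.08 in HE on day 7, against 7.02, 7.81 and 6.27 in SE and 6.74, 6.99 and 6.81 in HE on day 0. Every day 7 pool was under the filter, so the fall was at least 8.19-fold in SE (log2 difference -4.05, adjusted p = 4.18e-06) and at least 7.2-fold in HE (-3.67, adjusted p = 2.32e-05). SLC27A2, a very long-chain fatty acid ligase, showed the same order, with 3.13 to 3.62 over the 5 day 7 pools against 5.40 to 7.60 over the 6 day 0 pools. It fell at least 5.41-fold in SE (log2 difference -3.02, adjusted p = 0.000346) and at least 8.67-fold in HE (-3.65, adjusted p = 0.000268). SLC27A4, the family's main intestinal uptake protein, differed by 0.51 in SE (adjusted p = 0.0609) and 0.46 in HE (adjusted p = 0.128) and did not pass. SLC27A1 had 2 probe sets, neither above 3 in any endometrium pool.

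Monocarboxylate transporters of the SLC16 family carry lactate, pyruvate and ketone bodies together with protons. SLC16A1, the widely expressed lactate and pyruvate carrier, read 2.59, 2.54 and 2.57 in SE and 2.54 and 2.55 in HE on day 7, against 7.57, 4.95 and 7.50 in SE and 9.10, 7.68 and 8.20 in HE on day 0. The day 7 values were nearly the same, at the low end of the array's range. The fall was at least 6.39-fold in SE (log2 difference -4.11, adjusted p = 0.000351) and at least 20.1-fold in HE (-5.78, adjusted p = 0.000104).

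SLC16A3, the lactate exporter of glycolytic cells, has 3 probe sets that did not agree in level. The brightest read 7.76, 7.52 and 7.73 in SE and 7.12 and 7.81 in HE on day 7, against 8.46, 8.10 and 8.91 in SE and 9.50, 8.65 and 8.86 in HE on day 0. It fell by 0.82 in SE (adjusted p = 0.0327) and by 1.54 in HE (adjusted p = 0.00282) on the log2 scale. The SE call did not hold when any of 5 of the 6 SE pools was left out, with adjusted p from 0.0563 to 0.117, the second day 0 pool being the exception. The second was near the filter and differed by -0.42 in SE and -0.77 in HE without passing, and the third was under the filter in every pool.

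SLC16A13, a relative of the lactate carriers with a less settled substrate, rose on all 3 of its probe sets. The one with the tightest day 0 values read 10.06, 10.11 and 10.63 in SE and 10.08 and 10.40 in HE on day 7, against 6.03, 5.95 and 6.17 in SE and 6.30, 6.21 and 6.34 in HE on day 0. The log2 difference was 4.22 (adjusted p = 1.16e-07) in SE and 3.96 (adjusted p = 5.29e-07) in HE. Another gave 5.42 in SE and 5.12 in HE. The dimmest was at or under 4 on every day 0 array and passed the filter only through day 7, with a rise of at least 10.3-fold in SE and at least 11.7-fold in HE.

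SLC6A20, a sodium-coupled carrier of proline and related imino acids, read 10.61, 10.36 and 10.23 in SE and 10.26 and 11.18 in HE on day 7, against 3.95, 6.03 and 3.41 in SE and 2.54, 3.19 and 3.70 in HE on day 0. The day 7 pools were all above 10, and of the day 0 pools only the second SE pool was above 4. The log2 difference was 5.94 (standard error 0.59, adjusted p = 2.28e-05) in SE and 7.58 (standard error 0.66, adjusted p = 1.36e-05) in HE, where each day 0 pool was under the filter and the rise was at least 105-fold.

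SLC7A7, which with SLC3A2 releases lysine and arginine from epithelial cells in exchange for neutral amino acids, also rose. It read 8.78, 8.34 and 8.84 in SE and 8.94 and 9.01 in HE on day 7, against 6.43, 5.09 and 6.13 in SE and 5.30, 5.44 and 5.15 in HE on day 0. The log2 difference was 2.77 (standard error 0.30, adjusted p = 4.18e-05) in SE and 3.68 (standard error 0.34, adjusted p = 1.89e-05) in HE. Its heavy chain SLC3A2, which brings several SLC7 light chains to the membrane, was 8.77 to 9.66 over the day 7 pools against 8.37 to 9.09 over the day 0 pools. SLC3A2 differed by 0.44 in SE (adjusted p = 0.0661) and by 0.37 in HE (adjusted p = 0.158), and did not pass in either.

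SLC7A1, the main uptake route of arginine and lysine in most cells, went the other way. It read 5.58, 5.90 and 5.30 in SE and 6.01 and 6.46 in HE on day 7, against 7.08, 7.59 and 6.85 in SE and 7.57, 7.94 and 7.93 in HE on day 0. The pools of the 2 days did not overlap, and the log2 difference was -1.58 in SE (standard error 0.24, adjusted p = 0.000351) and -1.58 in HE (standard error 0.26, adjusted p = 0.000894). SLC7A5, the large neutral amino acid exchanger that pairs with SLC3A2, was at or under 2.93 in every day 7 pool. On day 0 it read 3.60, 7.96 and 3.60 in SE and 7.20, 4.21 and 6.63 in HE. With that spread its log2 difference of -2.63 in SE (adjusted p = 0.0721) and -3.24 in HE (adjusted p = 0.0552) did not pass.

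SLC38A2, a sodium-coupled carrier of small neutral amino acids that cells increase when amino acids are scarce, fell on both of its probe sets. The brighter read 10.44, 10.16 and 10.24 in SE and 10.56 and 10.47 in HE on day 7, against 11.18, 11.86 and 11.19 in SE and 11.43, 11.53 and 11.80 in HE on day 0. Its log2 difference was -1.13 (adjusted p = 0.00104) in SE and -1.07 (adjusted p = 0.00333) in HE. The dimmer gave -1.64 (adjusted p = 0.00141) in SE and -1.29 (adjusted p = 0.0116) in HE, and without the second HE day 7 pool its HE value was -1.17 with an adjusted p of 0.0769. SLC38A7, a lysosomal glutamine carrier, rose by 1.11 in SE (adjusted p = 0.00139) and 0.96 in HE (adjusted p = 0.00727), and its HE value was 0.65 with an adjusted p of 0.0838 without that same pool.

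Acidic and neutral amino acid carriers of the SLC1 family differed among themselves. SLC1A1, an epithelial glutamate and aspartate carrier, rose by 1.36 in SE (adjusted p = 0.00608) and by 1.0 in HE (adjusted p = 0.0465). The HE call was lost without any one of 7 pools (the first or second HE day 0 pool, the first or second SE day 0 pool, the second HE day 7 pool, and the first or the third SE day 7 pool), with adjusted p from 0.0523 to 0.395. Its value was lowest, at 0.48, without the second HE day 7 pool. SLC1A5, a glutamine exchanger, read 6.04, 5.41 and 5.36 in SE and 6.01 and 5.69 in HE on day 7, against 6.65, 7.97 and 6.39 in SE and 6.05, 6.04 and 6.04 in HE on day 0. It fell by 1.40 in SE (adjusted p = 0.00877) and by 0.92 without the second SE day 0 pool (adjusted p = 0.00723), and the HE difference was -0.19 without passing. The difference between the SE and HE changes was itself -1.21 and did not pass (interaction, adjusted p = 1.00). SLC1A5 read the same to within 0.02 in 4 of the 11 pools, all HE day 0 pools among them. SLC1A4, a serine and alanine exchanger, read the same to within 0.02 in 5 of the 11 pools and 8.03 in the second SE day 0 pool, and did not pass.

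SLC6A8, the creatine transporter, rose on both probe sets. The brighter read 8.86, 9.01 and 8.94 in SE and 8.81 and 8.97 in HE on day 7, against 5.72, 5.95 and 6.02 in SE and 6.07, 6.33 and 5.90 in HE on day 0. The days were far apart next to the spread of their pools, with a log2 difference of 3.04 (standard error 0.15, adjusted p = 3.14e-07) in SE and 2.79 (standard error 0.17, adjusted p = 1.48e-06) in HE. The dimmer gave 1.86 in SE (adjusted p = 3.19e-05) and 1.49 in HE (adjusted p = 0.000378). SLC6A14, a broad carrier of neutral and cationic amino acids, read 6.13, 5.87 and 5.81 in SE and 7.81 and 5.50 in HE on day 7, against 6.72, 10.12 and 7.41 in SE and 6.78, 8.08 and 6.45 in HE on day 0, and did not pass (-2.15, adjusted p = 0.0589 in SE; -0.45, adjusted p = 0.731 in HE). SLC43A1, a facilitator of branched-chain amino acids, differed by 0.57 in SE and 0.79 in HE without passing.

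Peptide carriers were represented by both SLC15 members on the array. SLC15A1, the intestinal proton-coupled carrier of di- and tripeptides, read 4.98, 4.79 and 5.88 in SE and 5.78 and 4.98 in HE on day 7, against 3.33, 3.36 and 3.33 in SE and 3.29, 3.57 and 4.03 in HE on day 0. It rose at least 2.32-fold in SE (log2 difference 1.88, adjusted p = 0.000679) and by 1.75 in HE (adjusted p = 0.00246). SLC15A4, a histidine and peptide carrier of endosomes and lysosomes, was 7.62 to 7.90 on day 7 against 7.30 to 8.12 on day 0, with differences of -0.02 in SE and 0.15 in HE.

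Neither facilitative sugar transporter tested in endometrium passed. SLC2A1, the widespread facilitative glucose carrier, read 8.96, 8.90 and 8.86 in SE and 8.78 and 9.04 in HE on day 7, against 9.03, 8.88 and 9.43 in SE and 9.22, 8.76 and 8.31 in HE on day 0. The pools of the 2 days overlapped, and the log2 difference was -0.21 (95% interval -0.72 to 0.30) in SE and 0.15 (-0.42 to 0.72) in HE. SLC2A8, an intracellular sugar carrier, differed by -0.28 in SE and -0.21 in HE without passing. The sodium-coupled glucose carrier SLC5A1 was at or under 3.61 on day 7 and read 3.95, 4.55 and 5.10 in SE and 4.48, 3.38 and 3.43 in HE on day 0. It fell by 1.14 in SE (adjusted p = 0.0212), a call lost without the third SE day 0 pool (-0.85, adjusted p = 0.0787) or the second SE day 7 pool (-0.94, adjusted p = 0.0777), and differed by -0.15 in HE. The interaction was -0.99 and did not pass (adjusted p = 1.00). SLC5A1 read the same to within 0.02 in 3 of the 11 pools, all of them on day 7.

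SLC5A10, a kidney mannose and fructose carrier in other mammals, rose by 1.05 in SE (adjusted p = 0.0145) and 1.49 in HE (adjusted p = 0.00484) on the one of its 3 probe sets that was tested. Its SE call narrowly failed without the third SE day 0 pool, or without the second or the third SE day 7 pool (adjusted p from 0.0512 to 0.0566). The iodide carrier SLC5A5 read 2.66, 2.60 and 2.64 in SE and 2.61 and 2.62 in HE on day 7, against 5.73, 5.29 and 5.50 in SE and 4.57, 5.37 and 5.89 in HE on day 0. It fell at least 2.84-fold in SE (log2 difference -2.87, adjusted p = 1.98e-05) and at least 2.42-fold in HE (-2.66, adjusted p = 9.17e-05).

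The 2 choline transporter-like genes moved in opposite directions. SLC44A4, which in human colon carries a form of thiamine, read 9.33, 9.0 and 9.26 in SE and 9.71 and 9.26 in HE on day 7, against 11.74, 12.26 and 11.37 in SE and 11.44, 11.70 and 11.36 in HE on day 0. It fell by 2.59 in SE (adjusted p = 1.12e-05) and by 2.01 in HE (adjusted p = 0.000168) on the log2 scale. SLC44A2 rose on both probe sets, by 1.36 in SE (adjusted p = 0.000281) and 1.42 in HE (adjusted p = 0.000542) on the dimmer one. On the brighter one it rose by 1.32 in SE and 1.08 in HE, the HE value being 0.74 with an adjusted p of 0.0758 without the second HE day 7 pool.

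**Figure D2:**
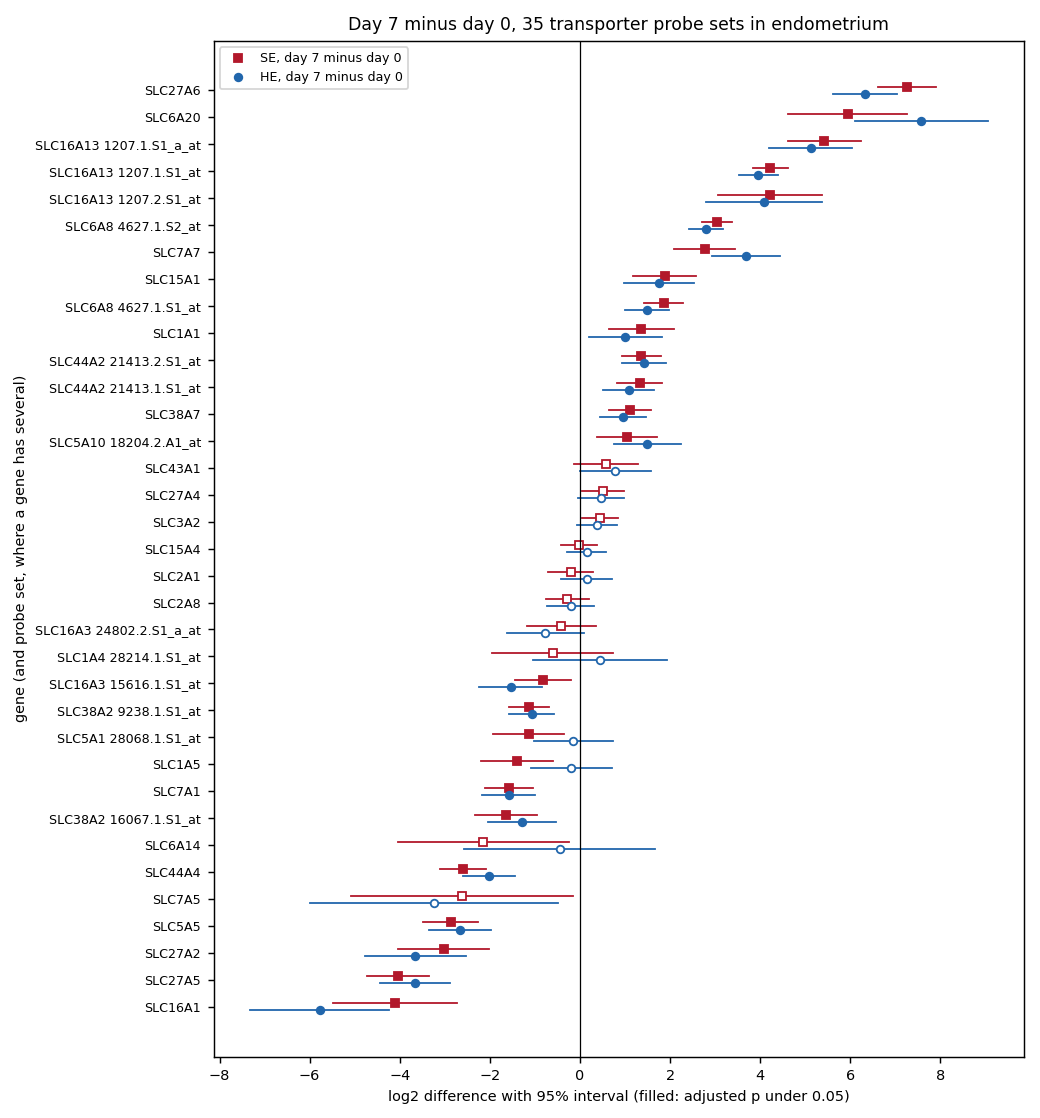
Log2 difference of day 7 minus day 0 (x axis) for the 35 transporter probe sets tested in endometrium (y axis), in SE (squares) and HE (circles), with 95% intervals and filled marks where limma's adjusted p was under 0.05. The differences run from 7.58 for SLC6A20 to -5.78 for SLC16A1, both in HE. Where the marks of both status groups are filled, they lie on the same side of 0. The filter set the direction of SLC6A20, SLC16A1 and the other members named in the next paragraph, so their shared side is no support. Over all probe sets tested, 38.6% passed in both status groups with the same sign.

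Of the 35 members, 11 passed the filter only through the day on which they were high, so that their direction was set by the filter and is no support for one. 4 of them (11.4%, against 5.06% of all probe sets tested) had fewer than 2 day 0 arrays above 4, namely SLC6A20, SLC15A1, SLC27A6 and the dimmest probe set of SLC16A13. The other 7 (20%, against 5.52%) were at or under 4 on every day 7 array, namely SLC5A1, SLC5A5, SLC7A5, SLC16A1, a probe set of SLC16A3, SLC27A2 and SLC27A5. Cell markers also moved between the days. The mean level of the 12 epithelial markers was 9.99 to 10.11 in SE and 10.32 to 10.38 in HE on day 7, against 11.20 to 11.38 in SE and 11.04 to 11.20 in HE on day 0, with 9 lower and 2 higher in SE and 6 lower and 2 higher in HE. The 4 neutrophil markers that were tested averaged 5.44 to 6.99 in SE and 4.73 to 6.58 in HE on day 7, against 7.85 to 11.19 in SE and 5.79 to 8.93 in HE on day 0, and MPO, ELANE, ITGAM and MMP9 were not above the filter. Of 7 lymphocyte markers 4 in SE and 3 in HE were higher on day 7 and 0 were lower. The part of these cell types in the transporter changes was not tested, and in pooled brushings fewer cells of a type and less RNA per cell cannot be told apart.

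Membrane partners of the transporters and the ion pump that drives many of them were then read from a list of 22 genes, 8 of which were tested. On day 7, 4 rose and 3 fell in SE, and 4 rose and 2 fell in HE. Over all probe sets tested 26% rose and 24.1% fell in SE, and 21.8% rose and 23.2% fell in HE. Genes that passed the filter through 1 day alone were not set apart, here or in the lists that follow. The filter sets the direction of any such gene, so its place in a count is no support for that direction. PDZK1 and PDZK1IP1, a scaffold of apical transporters and its partner, rose by 6.45 and 4.39 in SE and by 4.31 and 4.34 in HE on the log2 scale. SGK1, a kinase that keeps transporters at the membrane, rose by 3.66 in SE and 3.13 in HE (limma adjusted p = 4.15e-05 and 0.000317). NEDD4L, a ubiquitin ligase that removes transporters and that SGK1 inhibits, fell by 1.04 in SE and 1.32 in HE. BSG, the chaperone of the lactate carriers SLC16A1 and SLC16A3, rose by 0.44 in SE and 0.62 in HE, and ATP1B1, a subunit of the sodium pump, fell by 0.90 in SE and 0.71 in HE. The scaffold NHERF1 fell in SE (-0.62, adjusted p = 0.0402), a call lost without any one of 6 single pools. BSG also lost its call in both groups, and ATP1B1 in HE, when some single pools were left out.

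Genes through which cells sense amino acids for the growth kinase complex mTORC1 rose more often than they fell. Of 36 genes listed 24 were tested, each by its probe set of highest mean. In SE 13 rose and 2 fell, and in HE 12 rose and 1 fell. Over all 13421 probe sets tested 26% rose and 24.1% fell in SE, and 21.8% rose and 23.2% fell in HE. Those include dimmer probe sets of a gene and probe sets without a symbol, so the sets are not alike. The median difference of the 24 was 0.56 in SE and 0.42 in HE, beside 0.01 and -0.03 over all probe sets. RRAGD, one of the Rag GTPases that bring mTORC1 to the lysosome, rose by 2.91 in SE and 3.56 in HE, and CASTOR1, an arginine sensor, by 2.47 in SE and 1.98 in HE. The activator RHEB rose by 1.81 in SE and 1.77 in HE, and its brake TSC1 by 1.27 in SE and 1.69 in HE. SESN1, an inhibitor of the pathway, fell by 2.06 in SE and 2.18 in HE. Activators, sensors and brakes were among the genes that rose, and the count says nothing of the activity of the complex. The calls of AKT1S1, EIF4EBP1 and RRAGC in SE, and of AKT1S1, LAMTOR1, RRAGA and RRAGB in HE, were lost when at least 1 single pool was left out.

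**Figure D3:**
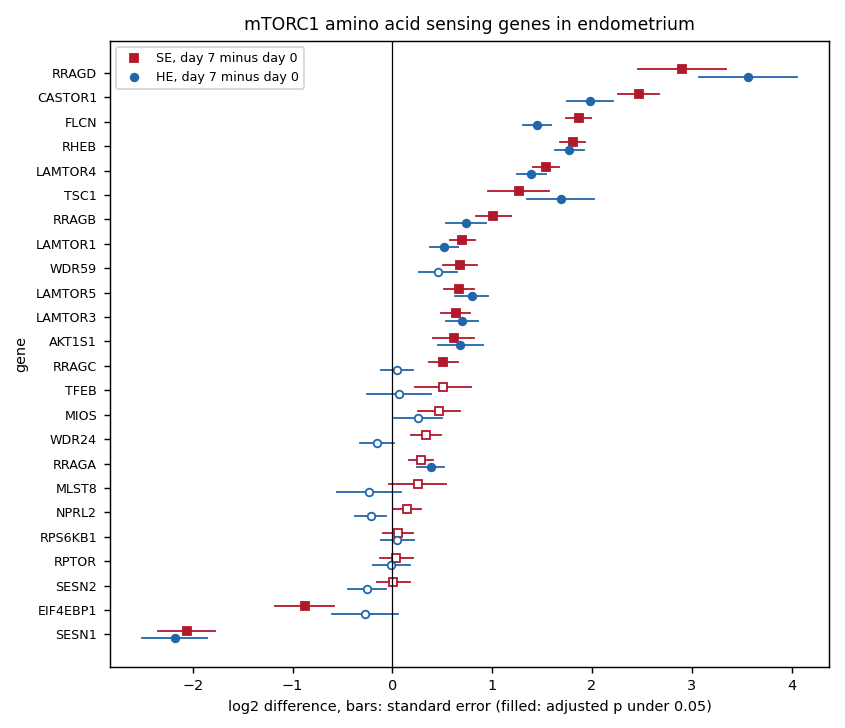
Log2 difference of day 7 minus day 0 (x axis, bars are standard errors) for the 24 tested genes of amino acid sensing by mTORC1 (y axis), in SE (squares) and HE (circles), filled where limma's adjusted p was under 0.05. RRAGD and CASTOR1 stand farthest to the right and SESN1 farthest to the left in both status groups.

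The transcription factor ATF4 raises transporters and amino acid synthesis when amino acids run short. Of 27 of its listed genes 19 were tested, with 7 higher and 7 lower on day 7 in SE, and 7 higher and 6 lower in HE. Over all probe sets tested 26% were higher and 24.1% lower in SE, and 21.8% higher and 23.2% lower in HE. The serine synthesis enzymes did not move together: PHGDH and PSAT1 rose by 9.11 and 2.55 in SE and by 6.83 and 2.31 in HE, while PSPH, the last enzyme of that route, fell (-2.05 in SE and -2.87 in HE). NUPR1, a stress-induced chromatin protein, rose by 5.92 in SE and 6.15 in HE, and CEBPB, a partner of ATF4, fell (-2.52 in SE and -2.83 in HE). These differences are as measured. Genes of this list whose low day lay under the filter were not set apart, so the filter may have set some of these directions. The list shares SESN2 with the mTORC1 list, and SESN2 did not pass in either status group. The calls of CBS and EIF2AK3 in SE, and of ATF4, ATF5 and PCK2 in HE, were lost when at least 1 single pool was left out.

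SE and HE endometrium were next compared on each day, which asks whether the transporters differ with the status of the uterus. On day 7 limma called 0 of the 35 members, and 0% of all probe sets (0 of 13421). On day 0 it called 0 of 35, beside 0.0224% of all probe sets. At an unadjusted p under 0.05 there were 2 members on day 7 (5.71%, against 3.55% of all probe sets) and 7 on day 0 (20%, against 7.6%). The intervals were wide: the median 95% interval of a member reached 0.74 to either side of its difference on day 7 and 0.66 on day 0, before any adjustment for the number of tests. A difference has to be larger than that to pass the adjusted test, as SLC38A2 below shows. The interaction of status and day called 0 of 35 and 0% of all probe sets, with 1 member, SLC1A5, at an unadjusted p under 0.05 (2.86%, against 3.92% of all probe sets). Next by unadjusted p, the day 7 minus day 0 difference was higher in SE than in HE by 0.93 for SLC27A6, 1.67 for SLC16A1 (a smaller fall) and 0.72 for the brightest probe set of SLC16A3. It was lower in SE by differences of -0.91 for SLC7A7, -0.99 for SLC5A1, -1.64 for SLC6A20 and -0.58 for SLC44A4, and none of these passed.

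On day 7 all SE pools lay under all HE pools in 5 members (14.3%, against 8.33% of all probe sets), SLC38A2 on both probe sets, SLC7A1, SLC5A10 and SLC7A7, and above them in 0 (against 7.93%). The dimmer probe set of SLC38A2 read 5.36, 4.02 and 4.87 in SE and 6.22 and 5.97 in HE on day 7, and 6.56, 6.34 and 6.27 in SE and 7.29, 7.11 and 7.76 in HE on day 0. The SE pools were lower on both days, with differences of -1.35 (95% interval -2.11 to -0.59, adjusted p = 1.00) on day 7 and -1.0 (-1.68 to -0.32, adjusted p = 0.583) on day 0. Its brighter probe set gave only -0.24 (-0.73 to 0.26) on day 7 and -0.18 (-0.62 to 0.27) on day 0, so the 2 readings of the gene did not match in size. The positive differences of smallest unadjusted p on day 7 were 0.38 for SLC2A8 and 0.51 for SLC27A6, and SLC1A1 and SLC5A10 stood at -0.47 and -0.42. None passed.

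SLC7A1 was -0.64 on both days, with 95% intervals of -1.23 to -0.05 on day 7 and -1.17 to -0.12 on day 0 (adjusted p = 1.00 and 0.608). Its day 0 pools overlapped. SLC3A2 was 8.90, 8.77 and 9.19 in SE and 9.10 and 9.66 in HE on day 7, and 8.37, 8.51 and 8.68 in SE and 9.09, 9.02 and 8.94 in HE on day 0. It differed by -0.43 on day 7 and -0.49 on day 0 (adjusted p = 1.00 and 0.608), and only the day 0 pools did not overlap.

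On day 0 the SE pools lay under the HE pools in 5 members (14.3%, against 9.24% of all probe sets), namely the dimmer probe set of SLC38A2, SLC3A2, SLC16A1, SLC1A1 and a probe set of SLC16A13, and above them in SLC1A5 and SLC2A8 (5.71%, against 3.58%). SLC16A1 differed by -1.65 (95% interval -3.02 to -0.28, adjusted p = 0.61), with the second SE pool at 4.95 and every other day 0 pool at 7.50 or more. SLC1A1 differed by -0.83 (-1.55 to -0.10, adjusted p = 0.618). SLC1A5 differed by 0.96 (0.16 to 1.77, adjusted p = 0.61), with the second SE pool at 7.97 and the other day 0 pools at 6.04 to 6.65. SLC6A20 differed by 1.32 (0.01 to 2.64, adjusted p = 0.656), with the second SE pool at 6.03 and the other 5 day 0 pools at or under 3.95. SLC5A1, SLC7A7 and SLC2A8 differed by 0.77, 0.59 and 0.46 without passing.

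Other measures moved with status as well. The 4 neutrophil markers, given above by pool group, reached 11.19 in SE and 8.93 in HE on day 0, and the groups overlapped. Of their SE minus HE differences 4 of 4 were positive on each day, with a median of 2.59 on day 0 and 0.61 on day 7. limma called 0 of these 4 markers by status. On day 7 the 12 epithelial markers averaged 9.99 to 10.11 in SE and 10.32 to 10.38 in HE, with 0 of 12 differences positive. On day 0 the 4 ciliated cell markers averaged 7.30 to 8.89 in SE and 6.14 to 7.19 in HE, with 4 of 4 differences positive, and the 7 macrophage and dendritic markers 5.65 to 5.85 in SE and 5.17 to 5.32 in HE. Those 3 lists did not overlap between the status groups on the day given, and limma called 0 of their genes by status. On each day the excess of 3' over 5' signal of the eIF-4E control probes was larger in every SE pool than in any HE pool, at 4.05 to 4.52 in SE and 3.67 to 3.91 in HE on day 7, and 3.88 to 4.27 in SE and 3.70 to 3.85 in HE on day 0. The 3' minus 5' difference of the ef1a control probes was -3.10 to -2.93 in SE and -3.27 to -3.11 in HE on day 0. It overlapped on day 7. The GAPDH, actin and Cyph control probes overlapped between the status groups on both days. The part of these markers and control probes in the status values was not tested. Of the partner list 1 gene was called by status: PDZK1 was lower in SE on day 0 (-2.01, adjusted p = 0.0139), a call lost without the first or the third HE day 0 pool. The lists of mTORC1 and ATF4 genes had 0 calls in either status comparison.

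**Figure D4:**
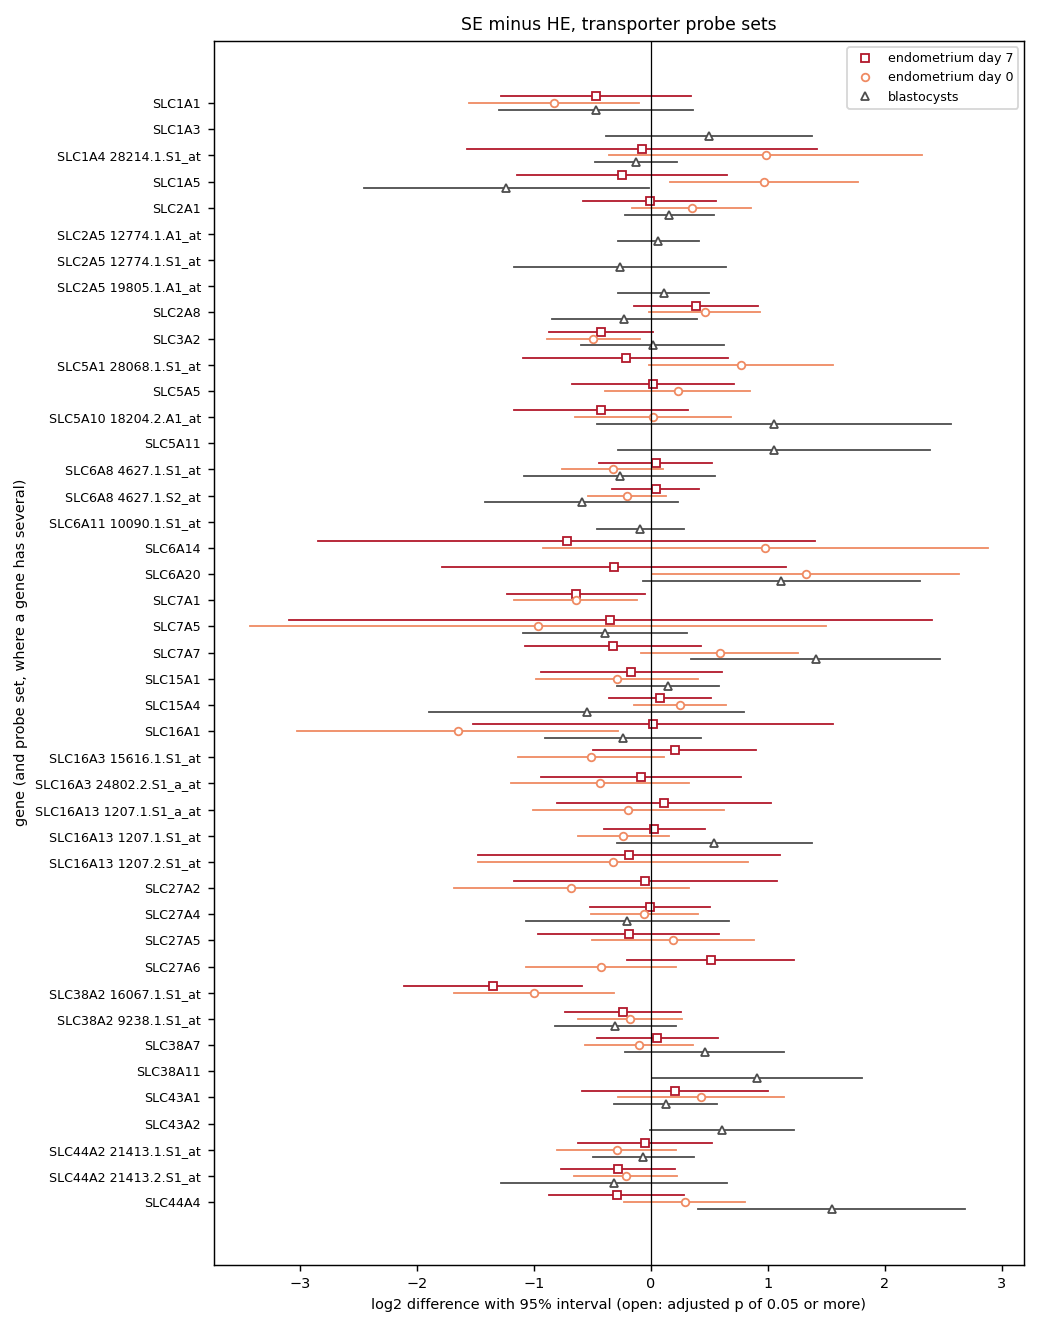
Log2 difference of SE minus HE (x axis) with 95% intervals for every transporter probe set tested in endometrium on day 7 (squares), in endometrium on day 0 (circles) or in blastocysts (triangles), by gene (y axis). All marks are open because 0 members had an adjusted p under 0.05, and intervals that leave out 0, such as those of the dimmer SLC38A2 probe set on both days, are not corrected for the number of tests.

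Of the 27 transporter genes tested in blastocysts 21 were also tested in endometrium. By probe set 8 of 31 (25.8%) passed the filter in blastocysts and not in endometrium, against 11.1% of all probe sets tested in blastocysts. The other 6 genes had no probe set above the filter in endometrium: SLC1A3, SLC2A5, SLC5A11, SLC6A11, SLC38A11 and SLC43A2. SLC2A5, the fructose carrier, read 12.54, 12.34 and 12.26 in pools of SE donors and 12.21 and 12.33 in pools of HE donors on its brightest probe set, and at or under 2.87 in every endometrium pool. Its other probe sets lay lower, at 5.33 to 6.38 and at 4.42 to 4.62, and the last of these read the same to within 0.02 in 4 of 5 pools. The glutamate carrier SLC1A3 read 9.60, 8.88 and 8.81 in pools of SE donors and 8.86 and 8.34 in pools of HE donors. SLC38A11, a little studied relative of the glutamine carriers, read 9.87, 9.52 and 9.61 in pools of SE donors and 9.25 and 8.27 in pools of HE donors.

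8 genes were tested in endometrium with no probe set above the filter in blastocysts (SLC5A1, SLC5A5, SLC6A14, SLC7A1, SLC16A3, SLC27A2, SLC27A5 and SLC27A6). By probe set 12 of 35 (34.3%) passed the filter in endometrium and not in blastocysts, against 27% of all probe sets tested in endometrium. SLC7A1, SLC16A3, SLC27A2, SLC27A5 and SLC5A5 read 2.20 to 2.23 in every blastocyst pool, at or next to the lowest value of those arrays. The lactate carriers therefore differed in which tissue and day they were measured: SLC16A1 was at 11.77, 11.62 and 11.13 in pools of SE donors and 11.89 and 11.59 in pools of HE donors, while it was under the filter in every day 7 endometrium pool. SLC7A5 was likewise 10.44, 11.08 and 11.14 in pools of SE donors and 11.23 and 11.32 in pools of HE donors, and at or under 2.93 in the day 7 endometrium. SLC2A1 was 10.57 to 10.78 in pools of SE donors and 10.40 to 10.57 in pools of HE donors, and the bright probe set of SLC38A2 13.09 to 13.53 and 13.49 to 13.77. The other probe set of SLC38A2 was under the filter, at 2.37 to 2.63 over the blastocyst pools. The probe sets of SLC16A13 not tested in blastocysts read 2.22 and 2.28 in every pool there. The signals are set side by side only to show which genes passed the filter in each tissue, and their sizes are not on a shared scale. Array medians were 3.08 to 3.12 in blastocysts and 4.18 to 4.30 in endometrium. The GAPDH excess at the 3' end was 4.97 to 5.85 in blastocysts and 0.03 to 0.58 in endometrium. The filter of 4 therefore does not mean the same in both, and the part of these differences was not tested.

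SE and HE donors were compared in blastocysts to ask whether the donor's status goes with the embryo's transporters. limma called 0 of 31 members and 0% of all 11014 probe sets, with 4 members at an unadjusted p under 0.05 (12.9%, against 9.34% of all probe sets). The pools of SE donors all lay above those of HE donors in 6 members (19.4%, against 12.4%) and under them in 3 (9.68%, against 12.6%). The median 95% interval of a member reached 0.82 to either side.

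SLC44A4 read 7.83, 6.58 and 6.98 in pools of SE donors and 5.82 and 5.36 in pools of HE donors, a log2 difference of 1.54 (95% interval 0.40 to 2.69, adjusted p = 0.432). SLC7A7 read 7.68, 7.77 and 7.72 in pools of SE donors and 6.94 and 5.69 in pools of HE donors, a difference of 1.41 (0.34 to 2.47, adjusted p = 0.435). The pools of SE donors lay close together in SLC7A7 and those of HE donors more than 1 log2 unit apart. SLC1A5 went the other way, with 7.96, 8.93 and 8.01 in pools of SE donors and 9.05 and 10.01 in pools of HE donors, a difference of -1.23 (-2.45 to -0.02, adjusted p = 0.53).

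SLC38A11 differed by 0.91 (0.01 to 1.81, adjusted p = 0.53), and the second HE pool was its lowest. SLC6A20, the proline carrier, read 11.05, 10.36 and 10.58 in pools of SE donors and 10.16 and 8.94 in pools of HE donors, a difference of 1.12 (-0.07 to 2.30, adjusted p = 0.548). SLC43A2, a branched-chain amino acid facilitator, differed by 0.61 (-0.01 to 1.22, adjusted p = 0.536), and the brighter probe set of SLC6A8 by -0.59 (-1.42 to 0.24, adjusted p = 0.603). SLC38A2, SLC1A1 and SLC7A5 differed by -0.30, -0.47 and -0.39, none past the test. SLC2A1 differed by 0.16 (-0.22 to 0.54) and SLC3A2 by 0.02 (-0.59 to 0.63), neither larger than the spread between pools. GAPDH control probes read 5.47 to 5.85 higher at the 3' end in pools of SE donors and 4.97 to 5.11 in pools of HE donors. For ef1a this difference was 2.07 to 2.36 in pools of SE donors and 1.41 to 2.03 in pools of HE donors. The actin, eIF-4E and Cyph control probes overlapped between the groups. Some cell markers were apart as well. The 12 epithelial markers averaged 9.16 to 9.58 in pools of SE donors and 8.81 to 8.96 in pools of HE donors, with 12 of 12 differences positive. The 3 inner cell mass and hypoblast markers averaged 10.12 to 10.75 in pools of SE donors and 10.76 to 10.78 in pools of HE donors. The 5 trophectoderm markers overlapped, at 8.65 to 9.63 in pools of SE donors and 9.10 to 9.31 in pools of HE donors. Of their differences 3 of 5 were positive. The stromal, lymphocyte, endothelial and smooth muscle markers overlapped too. The part of RNA integrity and of these cell markers in the transporter values was not tested.

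**Figure D5:**
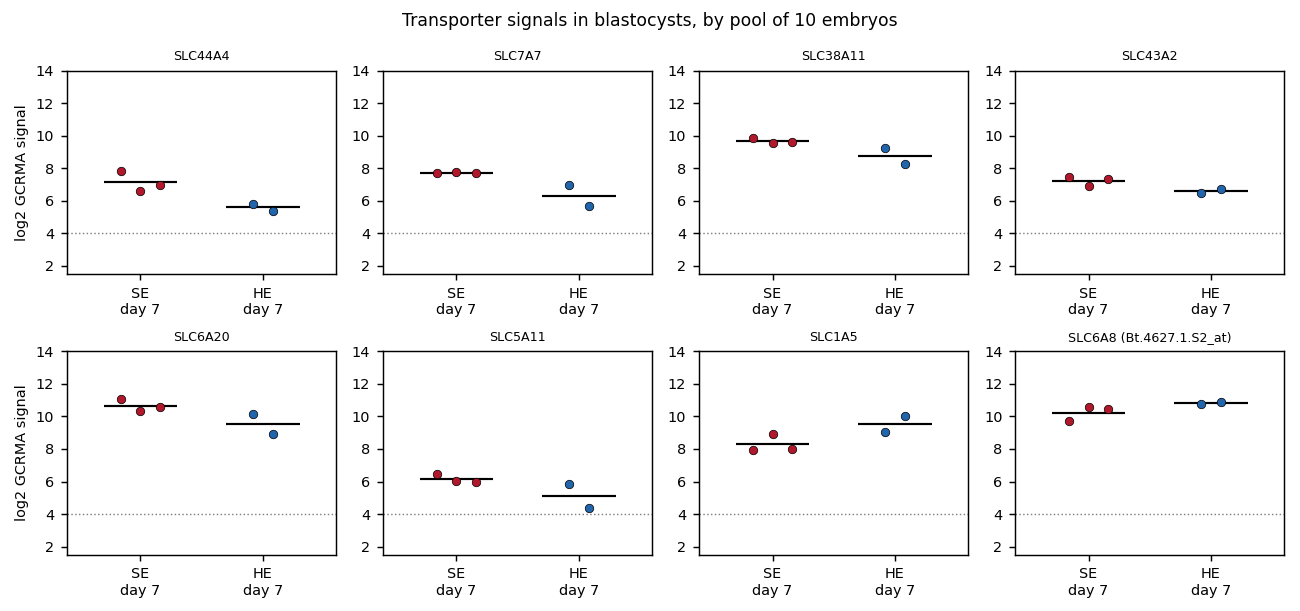
Log2 signal of 8 transporter probe sets in each blastocyst pool (y axis) by donor status (x axis), with a bar at the group mean and a dotted line at the filter of 4. In the first 6 panels the 3 pools of SE donors lie above the 2 of HE donors, as in SLC44A4 with 6.58 to 7.83 against 5.36 to 5.82, and in SLC1A5 and SLC6A8 below; none passed the test.

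The 33 probe sets tested in neither tissue include all those of 18 genes. Among them were SLC2A3 and SLC2A4, facilitative glucose carriers, the taurine carrier SLC6A6 and SLC3A1, the heavy chain of the kidney cystine transporter. SLC2A3 read 2.05 to 2.12 over the endometrium pools and 2.20 in every blastocyst pool, and SLC6A6 1.90 to 1.98 and 2.20. Such signals say that these probe sets gave no reading above the filter, not that the genes were silent.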

How the data were processed

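RNA of pooled cytobrush samples and of pooled blastocysts was amplified in 2 rounds from 15 ng and hybridised to Affymetrix bovine genome arrays, per the labels' protocols. The deposited values are log2 signals per probe set that the authors made with GCRMA, per the submitters' processing notes; no count lies behind them, so the number of arrays limits the precision. Gene symbols came from the platform annotation. Of 24016 probe sets, 13292 had 1 symbol, 86 several and 10638 none, and all 76 members were found in the RefSeq gene table with their symbols unchanged.

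Probe sets above 4 on at least 2 arrays of a tissue were kept, 13421 in endometrium and 11014 in blastocysts. Group means were fitted with limma 3.58.1 in R 4.3.3 (lmFit, eBayes), the 11 endometrium arrays in 1 fit and the 5 blastocyst arrays in another. Every adjusted p in the text is limma's moderated two-sided test with Benjamini-Hochberg adjustment over all kept probe sets, at 0.05. Where a group was at or under 4 on every array, any fold printed is a lower bound against 4, and log2 differences are as measured. The script was tested on simulated data. Alternatives were no filter, a stricter filter, further quantile normalization, array weights, an intensity trend, gene means, the replicate number as a block, only the groups compared, and each pool left out.

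The members and gene lists were chosen with earlier results of these data known. A listed or marker gene with several tested probe sets was read by the one with the highest mean in the tissue. Shares and medians over all probe sets take in every kept probe set. Genes named are, per comparison, members that passed (the 10 largest rises and falls), else the 5 of smallest unadjusted p in a direction, members whose status groups did not overlap, and a list of transporters known in uterus or embryo; the part of the rule that ranks levels was not used, since levels of different probe sets are not comparable. Same-numbered pools did not deviate together (r from -0.27 to 0.24 over 15 endometrium pairs), so the numbers were not used for pairing.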

Additional observations from a re-analysis of the deposited data

Results flagged for a closer look

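SLC7A7 stood in opposite order in the 2 tissues: all SE pools were under all HE pools in day 7 endometrium (log2 difference -0.32), and all pools of SE donors were above those of HE donors in blastocysts (1.41). Of all probe sets tested, 8.33% had every SE pool under every HE pool in day 7 endometrium. In blastocysts 12.4% had every pool of SE donors above those of HE donors. SLC7A7 is 1 gene picked from those tested in both tissues. Neither difference passed limma's test, and the difference between the tissues was not tested.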

How the results depend on the processing

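With single pools left out, 22 to 27 members were called between the days in SE and 19 to 25 in HE, and under the other settings 19 to 26 in SE and 18 to 25 in HE, where the lowest counts come from gene means, over fewer features. Gene means also lowered the count over all features to 3671 against 6723 probe sets in SE and 3321 against 6034 in HE. The 3 status comparisons and the interaction called 0 members under every setting run, while their counts over all probe sets moved between 0 and 11 on day 0, 0 and 10 on day 7, and 0 and 2 for the interaction. The replicate block called 24 members in SE and 23 in HE, and ended the SE call of the brightest SLC16A3 probe set. Among the called day changes of single probe sets 447 of 460 values in HE and 483 of 498 in SE kept their direction and side of the threshold, and 13 and 15 no longer passed. In day 7 endometrium 3 SE minus HE differences that did not pass changed sign with a single HE pool left out: SLC1A1 lay between -0.99 and 0.052, SLC16A3 between -0.14 and 0.55 and SLC43A1 between -0.11 and 0.53, and the cause was not tested. Signals near the filter and the small number of pools limit what could be called.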

Other observations

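A pair of members under the filter passed limma's test when no filter was applied, and they are named after their values were seen. SLC6A9, a glycine transporter, read 2.21, 2.91 and 3.09 in SE and 3.87 and 3.37 in HE on day 7. On day 0 it read 2.18 to 2.21 in SE and 2.16 to 2.19 in HE, and its log2 difference in HE was 1.44 (adjusted p = 0.0033). Another probe set of SLC6A9 read 1.68 to 1.75 over all endometrium pools of both days. SLC5A6, a carrier of biotin and pantothenate, read 3.31, 3.54 and 3.50 in SE and 2.09 and 3.37 in HE on day 7, against 2.0 to 2.04 in SE and 1.96 to 2.0 in HE on day 0, with a log2 difference of 1.43 in SE (adjusted p = 0.00481). All of these signals were under 4.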
